A study of Schizosaccharomyces pombe with 9 samples.

Results

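The genes described here code for chaperones, co-chaperones and chaperonins of the fission yeast Schizosaccharomyces pombe other than its major heat shock proteins. They were taken by their product names: 94 rows had chaperon, heat shock or DNAJ in the product and were not non-coding RNAs, and 6 major heat shock genes among them (ssa1, ssa2, hsp16, hsp104, hsp90 and hsp9) were left out. hsp78, also left out, had a product that did not match. This gave 88 genes of 6986, and all 88 passed the filter on low counts that left 5951 genes to test. By product they fell into 32 cytosolic chaperones or chaperones with no compartment named, 8 subunits of the CCT chaperonin, 10 mitochondrial, 6 endoplasmic reticulum (ER), 12 histone and nucleosome chaperones, 5 proteasome assembly and 5 tubulin folding factors, 4 metal chaperones, 3 ribosome or RNA linked proteins and 3 subunits of the vacuolar transporter chaperone (VTC). A product that names no compartment put some proteins of other compartments into the cytosolic class, such as the predicted Scj1, whose budding yeast namesake is an ER protein. The match on words makes this a mixed set, and 21 of the 88 products carry DNAJ.

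Their RNA levels were compared between the parental strain rpb1-CTD-T4A29 (T4A here) and the mutants STF6 and STF9. The name of the parent and the series title place its mutation at Thr4 of the carboxy-terminal tail of Rpb1, the biggest RNA polymerase II subunit, and the title calls the mutants suppressors of the over-repression of phosphate-uptake genes that this mutation causes. The series design describes T4A as the parental control of both mutants. Which genes STF6 and STF9 carry mutated is not stated in the sources used here, and no strain with an unmutated polymerase was analysed here. All groups were in vegetative growth, in log phase in YES medium at 30 °C, with lab strain numbers BS 1 (T4A), BS 8 (STF6) and BS 11 (STF9). Each group had 3 libraries of poly(A)+ RNA, with total counts from 15374453 to 22909747. Nothing says that the 3 replicates came from separate cultures, so p-values measure the spread between these libraries, which may be technical.

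Molecular chaperones bind unfolded or partly folded proteins and help them reach their native form. Hsp70 chaperones work in cycles of ATP hydrolysis, which J-domain (DNAJ) proteins start and nucleotide exchange factors end, and Hsp90 takes over some of their clients with the help of a set of co-chaperones. Chaperonins are barrels in which a protein folds in isolation: Hsp60 with its lid Hsp10 in mitochondria, and the 8-subunit CCT (T-complex) ring in the cytosol, which folds actin and tubulin. Other proteins called chaperones escort histones, copper ions, tubulin subunits or proteasome parts, and the VTC is named so although it makes polyphosphate. In fission yeast, as in other eukaryotes, many but not all of the folding chaperones are induced by heat through the heat shock factor Hsf1.

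Levels are given as CPM, which are counts relative to library size after TMM scaling. They are not corrected for gene length and so are not compared between genes. The words rose and fell are used where edgeR's quasi-likelihood test, adjusted by Benjamini-Hochberg over the 5951 genes, gave p under 0.05. The libraries of a mutant and of T4A do not overlap where every library of one lies above every library of the other. The same 3 T4A libraries serve both comparisons with the parent, so the STF6 and STF9 values are set side by side below, and a gene called in both is no independent second result. T4A replicate 2 lay farthest from the mutants on the first principal component, which held 65.7% of the variance and separated T4A from all 6 mutant libraries, and calls of members that were gained or lost without it are given with the genes.

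In STF6, 20 of the 88 chaperone genes rose and 18 fell, against a background of 19.2% higher and 19.2% lower over all genes tested. Among the members these were 22.7% and 20.5%, so the counts were near the background. In STF9, 23 rose and 19 fell, 26.1% and 21.6% of the members against 23% and 21.3% of all genes, again near the background. Without T4A replicate 2 the counts were 24 and 21 in STF6 (all genes 23.3% and 20.6%) and 29 and 19 in STF9 (all genes 26% and 20.6%). The median log2 fold change of the members was 0.12 in STF6 and 0.16 in STF9, where the medians of all genes were 0.03 and 0.04. Members ranged from −1.06 to 0.93 in STF6 and from −1.19 to 0.90 in STF9. The libraries did not overlap for 45 members in STF6 (background 50.3%) and 51 in STF9 (background 54%).

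Each mutant had lower RNA of some co-chaperones and organelle chaperones and higher RNA of others. The 16 genes called lower in each of the comparisons were psi1, aha1, mas5, pss1, mug4, wos2 and sti1 of the cytosolic class, mcp60, mdj1 and hsp10 of mitochondria, bip1 and sil1 of the ER, the copper chaperones sco1, ccs1 and atx1, and the proteasome factor ecm29. The 16 called higher in each were the 3 VTC subunits, the histone chaperones cia1, spt16, hip1 and nap1, the tubulin cofactors tbc1 and alp1, the chaperonin subunit cct7, and 6 J-domain proteins. A further 4 genes rose and 2 fell in STF6, and a further 7 rose and 3 fell in STF9, without a call in the other mutant. In 40 genes neither comparison passed. The shares of all genes called in both comparisons, in 1 or in neither were not computed. These joint counts therefore have no background beside them and are only a list of genes. A call in 1 mutant and not in the other does not show that the mutants differ, and none of the 88 passed the direct test between them. In bulk cultures, a smaller share of cells that express a gene and less RNA per cell cannot be told apart.

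**Figure D1:**
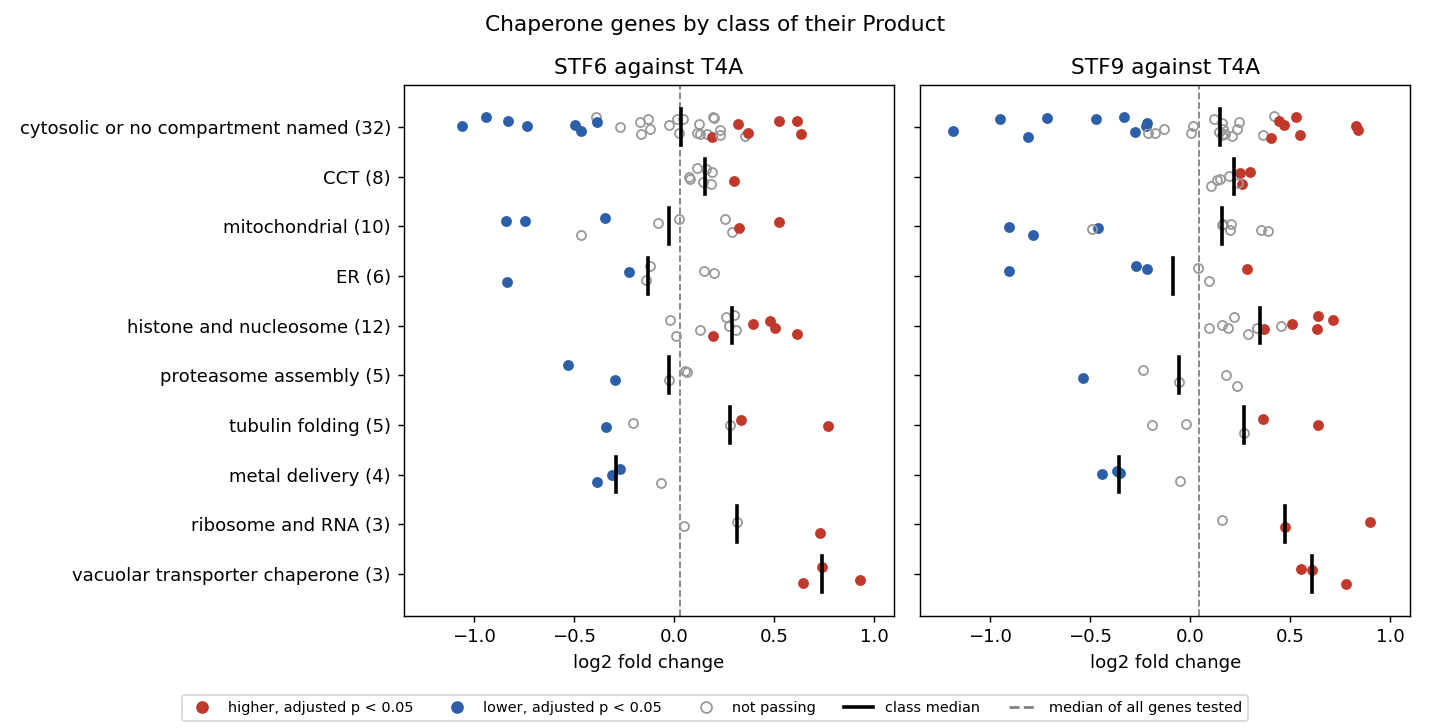
Log2 fold change of each of the 88 chaperone genes against T4A (x axis) by product class (y axis, number of genes in brackets), for STF6 on the left and STF9 on the right. Filled points passed edgeR's test at adjusted p under 0.05, black bars are class medians and the dashed line is the median of all 5951 genes; the cytosolic class spreads to both sides (from −1.06 to 0.63 in STF6), and the 3 VTC genes lie from 0.65 to 0.93 in STF6.

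The medians of the cytosolic, mitochondrial and CCT classes lay from −0.03 to 0.22, where those of all genes were 0.03 in STF6 and 0.04 in STF9. The CCT medians lay above those of all genes in both mutants. The cytosolic and mitochondrial classes held genes with large falls beside genes that rose. Of the 32 cytosolic genes, 6 rose and 7 fell in STF6 (median log2 fold change 0.04), and 7 rose and 9 fell in STF9 (median 0.15). Of the 10 mitochondrial genes, 2 rose and 3 fell in STF6 (median −0.03), and 0 rose and 3 fell in STF9 (median 0.16). Of the 8 CCT genes, 1 rose in STF6 (median 0.15) and 3 rose in STF9 (median 0.22), and 0 fell in either. These counts are small, and over all genes 19.2% rose and 19.2% fell in STF6 and 23% and 21.3% in STF9. No test of one class against another was made. Without T4A replicate 2 the CCT medians were 0.07 and 0.18, the cytosolic medians −0.08 and 0.03, and the mitochondrial medians −0.12 and 0.06.

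Among the cytosolic partners of Hsp70 was psi1, the gene with the largest fall of the set in each mutant. By size of fall mas5 had rank 5 and pss1 rank 7 in each mutant, behind aha1, mcp60 and bip1. The J-domain proteins Mas5 and Psi1, related to the general Hsp40 chaperones Ydj1 and Sis1 of budding yeast, and Pss1, the Hsp110 relative that exchanges nucleotide on Hsp70, were all lower in both mutants. For psi1 (SPCC830.07c) the level was 175, 264 and 150.3 CPM in T4A, 97.9, 90.9 and 94.1 CPM in STF6 and 88.8, 85.3 and 84.3 CPM in STF9. Every T4A library lay above every mutant library, and the T4A libraries were the more widely spread. The log2 fold change of psi1 was −1.06 ± 0.16 (SE) in STF6 and −1.19 ± 0.16 in STF9, that is 2.08-fold and 2.28-fold lower. The adjusted p from edgeR's quasi-likelihood test was 2.65e-04 for STF6 and 1.19e-04 for STF9. These were the largest falls among the 88 genes in both comparisons.

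For mas5 (SPBC1734.11), which in fission yeast holds Hsf1 in check together with an Hsp70, the level was 1451, 1927 and 1259 CPM in T4A, 881, 859.7 and 867 CPM in STF6 and 909, 885 and 849.9 CPM in STF9. It fell by 0.83 ± 0.13 on the log2 scale in STF6 and by 0.81 ± 0.13 in STF9, and edgeR's adjusted p was 3.98e-04 and 4.79e-04. For pss1 (SPAC110.04c) the level was 2328, 3025 and 2034 CPM in T4A, 1494, 1538 and 1411 CPM in STF6 and 1518, 1532 and 1454 CPM in STF9. Its log2 fold changes were −0.73 ± 0.13 in STF6 and −0.71 ± 0.13 in STF9, with edgeR's adjusted p of 8.50e-04 and 0.001. In all 3 genes T4A replicate 2 was the highest of the T4A libraries. Without that library the log2 fold changes were −0.78 and −0.91 for psi1, −0.64 and −0.62 for mas5, and −0.55 and −0.53 for pss1 in STF6 and STF9, and all 6 still passed.

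The Hsp70 system of the ribosome, which meets nascent chains, gave no call with all libraries. Sks2, its Hsp70, had log2 fold changes of 0.13 ± 0.12 in STF6 and 0.16 ± 0.12 in STF9. Without T4A replicate 2 these were 0.24 and 0.27, and sks2 was then called higher in both (edgeR adjusted p 0.036 and 0.0173). Its partners of the ribosome-associated complex, ssz1 (−0.17 ± 0.10 and −0.18 ± 0.10) and the J-domain protein zuotin, zuo1 (0.05 ± 0.09 and 0.16 ± 0.09), overlapped with T4A and passed neither with nor without that library. The BAG proteins, nucleotide exchange factors of Hsp70, were mixed. Bag102 had −0.16 ± 0.07 in STF6 without a call and fell in STF9, by 0.22 ± 0.07, a call that was lost without STF9 replicate 3. Bag101 had 0.20 ± 0.16 and 0.42 ± 0.16 and did not pass in either mutant.

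Among the co-chaperones of Hsp90, aha1, wos2 and sti1 fell in both mutants, and cdc37 and cns1 did not pass in either. Aha1 stimulates the ATPase of Hsp90. The level of aha1 (SPBC1711.08) was 661, 851 and 588 CPM in T4A, 351, 379 and 366 CPM in STF6 and 375, 362 and 349.8 CPM in STF9. No mutant library reached the lowest T4A library, and the log2 fold changes were −0.94 ± 0.12 in STF6 and −0.95 ± 0.12 in STF9, with edgeR's adjusted p of 6.20e-05 and 6.51e-05. T4A replicate 2 was again the highest, and without it the values were −0.77 and −0.78, both still past the threshold.

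Wos2, the p23 protein that binds the ATP-bound form of Hsp90, had smaller falls and another pattern among the T4A libraries. Its level was 604, 519 and 627 CPM in T4A, 379, 409 and 455 CPM in STF6 and 426, 454 and 513 CPM in STF9. Here T4A replicate 2 was the lowest of its group, and the groups still did not overlap. The log2 fold changes were −0.49 ± 0.10 (edgeR adjusted p 0.00263) in STF6 and −0.33 ± 0.10 (edgeR adjusted p 0.0209) in STF9. For sti1, which links Hsp70 to Hsp90, the level was 453, 368 and 432 CPM in T4A, 295, 319.9 and 344 CPM in STF6 and 329.7, 345 and 361 CPM in STF9. T4A replicate 2 was the lowest of its group here too, and every mutant library lay below it. The fold changes of sti1 on the log2 scale were −0.39 ± 0.09 and −0.27 ± 0.09, with edgeR's adjusted p of 0.00604 and 0.0295. In STF9 the wos2 call was lost without T4A replicate 1 or STF9 replicate 1 or 2, and the sti1 call without T4A replicate 1 or any one STF9 library. With library size alone as the scaling, the sti1 calls in both mutants and the wos2 call in STF9 were lost.

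The remaining Hsp90 partners gave no call with all libraries. Cdc37, which brings protein kinases to Hsp90, was at 65.9, 43.4 and 68.3 CPM in T4A, 55.0, 59.6 and 65.5 CPM in STF6 and 60.9, 71.0 and 73.6 CPM in STF9. T4A replicate 2 lay well below the other T4A libraries and widened the group, and the log2 fold changes were 0.02 ± 0.15 and 0.21 ± 0.15. Cns1, a TPR protein of the same complex, had −0.12 ± 0.13 and 0.01 ± 0.13, with overlapping libraries in both comparisons. With T4A replicate 2 left out, cns1 was called lower in STF6, with −0.25 (edgeR adjusted p 0.031).

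**Figure D2:**
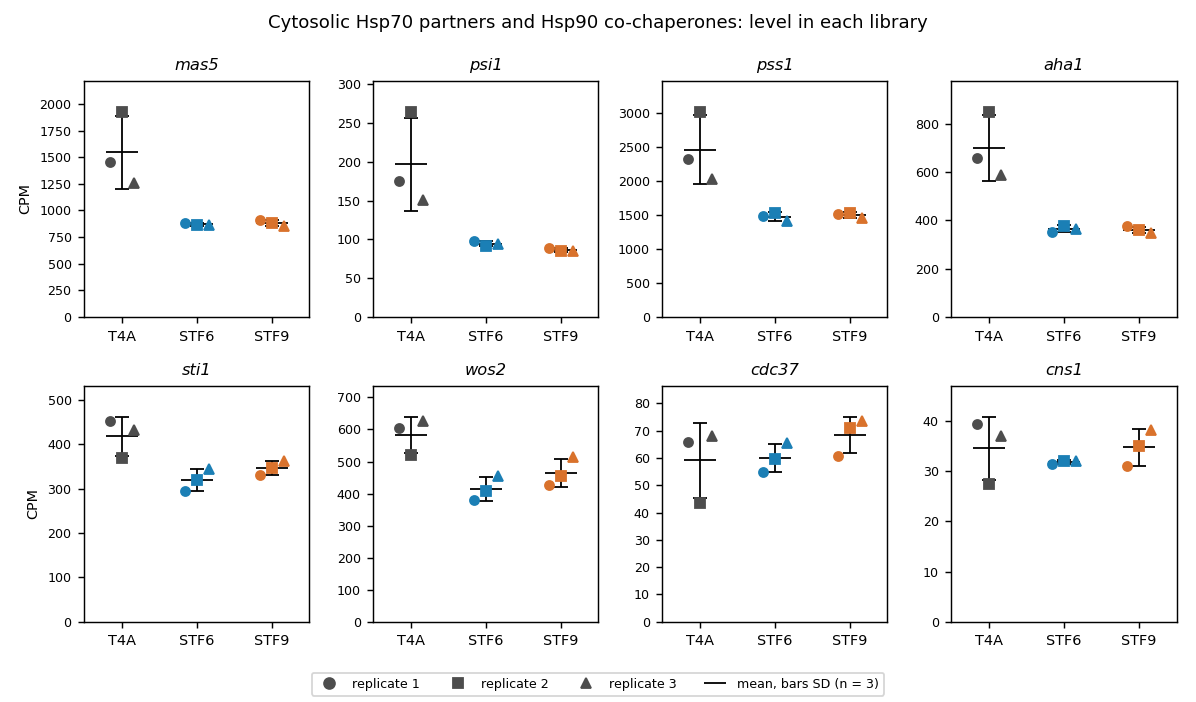
Level in CPM (y axis, linear from 0) of 8 cytosolic co-chaperone genes in each of the 9 libraries, with the mean and SD of each group (n = 3); marker shapes show the replicate number. For mas5, psi1, pss1 and aha1 all 6 mutant libraries lie below the 3 T4A libraries and T4A replicate 2 is highest, for sti1 and wos2 it is the lowest T4A library, and for cdc37 and cns1 the groups overlap.

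J-domain genes went both ways. Of the 21 genes with DNAJ in the product, 7 rose and 4 fell in STF6, where 19.2% of all genes rose and 19.2% fell, and 10 rose and 4 fell in STF9, where the shares of all genes were 23% and 21.3%. The J-domain gene zuo1 and the J-domain-type jac1 lack DNAJ in the product and are not counted here, and neither passed in either mutant. No test of the family against other genes was made. mas5, psi1, mdj1 and mug4 fell in both, and ucp7, SPAC4H3.01, mug185, mug184, SPBC543.02c and spf31 rose in both. SPAC4H3.01, a protein of the type of the budding yeast proteins Caj1 and Djp1, was at 73.5, 47.0 and 77.5 CPM in T4A, 96.4, 106 and 106 CPM in STF6 and 112, 116 and 127 CPM in STF9. All mutant libraries lay above the T4A libraries, and the log2 fold changes were 0.63 ± 0.14 (edgeR adjusted p 0.00456) and 0.84 ± 0.14 (edgeR adjusted p 7.98e-04). The predicted J-domain splicing factor gene spf31 was at 9.72, 5.57 and 10.8 CPM in T4A, 12.8, 13.8 and 17.0 CPM in STF6 and 13.7, 16.6 and 18.7 CPM in STF9. Its groups did not overlap, and it rose by 0.73 ± 0.21 in STF6 and 0.90 ± 0.21 in STF9 on the log2 scale, the former call being lost without STF6 replicate 2 or 3.

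Several of the other J-domain genes had low counts. mug185 was at 6.72, 5.40 and 7.32 CPM in T4A, 9.86, 8.84 and 11.3 CPM in STF6 and 9.94, 12.1 and 12.6 CPM in STF9. It rose by 0.62 ± 0.16 in STF6, a call lost without STF6 replicate 3, and by 0.83 ± 0.16 in STF9. mug184, named in its product as linked to exocytosis, was at 9.32, 8.67 and 11.0 CPM in T4A, 14.0, 15.6 and 12.2 CPM in STF6 and 11.4, 15.7 and 13.1 CPM in STF9. Its groups did not overlap, and it rose by 0.53 ± 0.16 and 0.47 ± 0.16 on the log2 scale. The STF6 call was lost without T4A replicate 1 or STF6 replicate 1 or 2, and the STF9 call without T4A replicate 1 or STF9 replicate 2 or 3. ucp7, which also carries UBA and TPR domains and whose relative auxilin strips clathrin from vesicles, rose by 0.32 ± 0.12 and 0.55 ± 0.12. Its STF6 call was lost without T4A replicate 1 or any one STF6 library, as well as with median-ratio scaling. The rises of SPBC543.02c, of the DNAJC7 family with TPR repeats, were 0.37 ± 0.08 and 0.40 ± 0.08, and these calls were kept under every alternative run.

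The remaining J-domain genes had less stable calls or none. mug4 was at 9.32, 12.1 and 9.46 CPM in T4A, 6.33, 8.14 and 7.92 CPM in STF6 and 6.59, 7.60 and 8.03 CPM in STF9. The groups did not overlap and the log2 fold changes were −0.46 ± 0.16 and −0.47 ± 0.16, but both calls were lost without T4A replicate 2 or any one library of the mutant. In STF9, with no call in STF6, xdj1 (0.53 ± 0.17, lost without STF9 replicate 2 or 3), SPBC3E7.11c (0.44 ± 0.16, with overlapping libraries, lost without T4A replicate 1 or STF9 replicate 2 or 3) and the nucleolar DNAJC9 relative SPAC1071.09c (0.48 ± 0.17, lost without T4A replicate 1 or any one STF9 library) passed. In STF6, with no call in STF9, the DNAJB12 relative SPBC17A3.05c passed (0.19 ± 0.07), and it was lost without T4A replicate 1 or 3 or any one STF6 library. DESeq2, median-ratio scaling and the replicate block also lost this call. SPBC17A3.05c was also called higher in STF9 without T4A replicate 2 (0.18, edgeR adjusted p 0.0208). Without a call in either mutant were SPAC4G9.19, rsp1, SPBC1347.05c, the splicing-linked cwf23, SPCC63.13 and, from the mitochondrial class, SPCC63.03.

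The other cytosolic genes did not pass in either mutant, apart from SPCC338.06c. This small heat shock protein gene of the Hsp20 family fell in STF9 by 0.22 ± 0.08 on the log2 scale, a call lost without T4A replicate 1 or 3 or any one STF9 library. It had −0.13 ± 0.08 in STF6, and −0.17 with a call (edgeR adjusted p 0.0439) without T4A replicate 2. No call was made for pmp20, srp40, dbl3, uri1 or SPBC16E9.15, the last a predicted binding protein of heat shock factor, with log2 fold changes of 0.13 ± 0.09 and 0.12 ± 0.09.

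In mitochondria the chaperonin and the J-domain protein were lower in both mutants, and the Hsp70 was not. Mcp60, the Hsp60 chaperonin (SPAC12G12.04), was at 2438, 3305 and 2148 CPM in T4A, 1459, 1560.0 and 1395 CPM in STF6 and 1448, 1419 and 1350.0 CPM in STF9. The T4A libraries all lay above the mutant libraries, with T4A replicate 2 the highest. The log2 fold changes were −0.84 ± 0.14 in STF6 and −0.90 ± 0.14 in STF9, with edgeR's adjusted p of 5.48e-04 and 3.43e-04, and −0.63 and −0.70 without T4A replicate 2. Its lid, hsp10, was at 1164, 1349.5 and 1172 CPM in T4A, 965, 911 and 1029.9 CPM in STF6 and 952, 909.8 and 818 CPM in STF9. The groups did not overlap, and hsp10 fell by 0.34 ± 0.10 in STF6 and 0.46 ± 0.10 in STF9 on the log2 scale (edgeR adjusted p 0.0138 and 0.0027).

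The matrix Hsp70 cycle was split between its parts. Mdj1, its J-domain protein, was at 246, 306 and 210.4 CPM in T4A, 156, 152 and 147 CPM in STF6 and 155, 146 and 141 CPM in STF9. It did not overlap between groups and had log2 fold changes of −0.74 ± 0.11 and −0.79 ± 0.11, with edgeR's adjusted p of 3.09e-04 and 2.11e-04. The Hsp70 itself, ssc1, which drives protein import and also serves iron-sulfur cluster assembly, was at 629, 923 and 535 CPM in T4A, 1112, 1022 and 872 CPM in STF6 and 921, 907 and 841 CPM in STF9. T4A replicate 2 lay among the STF6 libraries and level with the highest STF9 library, and the other 2 T4A libraries lay below all mutant libraries. The log2 fold change of ssc1 was 0.53 ± 0.16 in STF6 (edgeR adjusted p 0.0229) and 0.35 ± 0.16 in STF9 (edgeR adjusted p 0.0934). Without T4A replicate 2 these were 0.79 and 0.62, and ssc1 was then called higher in both, whereas the STF6 call was lost without T4A replicate 1 or STF6 replicate 1 or 2.

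Mge1, the nucleotide exchange factor of Ssc1, was at 206, 159 and 192 CPM in T4A, 240.3, 239 and 217 CPM in STF6 and 208, 209 and 225 CPM in STF9. No mutant library reached down to the T4A libraries, and mge1 rose in STF6 by 0.32 ± 0.09 (edgeR adjusted p 0.0164), which was lost without STF6 replicate 1 or 2, and had 0.20 ± 0.09 in STF9 (edgeR adjusted p 0.0918). Jac1, the J-domain-type co-chaperone for iron-sulfur clusters, had 0.29 ± 0.13 and 0.20 ± 0.13 with no call, although its mutant libraries also lay above those of T4A. The assembly factors of the ATP synthase atp11 and atp12, the copper chaperone of cytochrome oxidase cox16 and the DNAJC11 relative SPCC63.03 did not pass. SPCC63.03 had the widest of these values, −0.47 ± 0.19 and −0.49 ± 0.19.

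**Figure D3:**
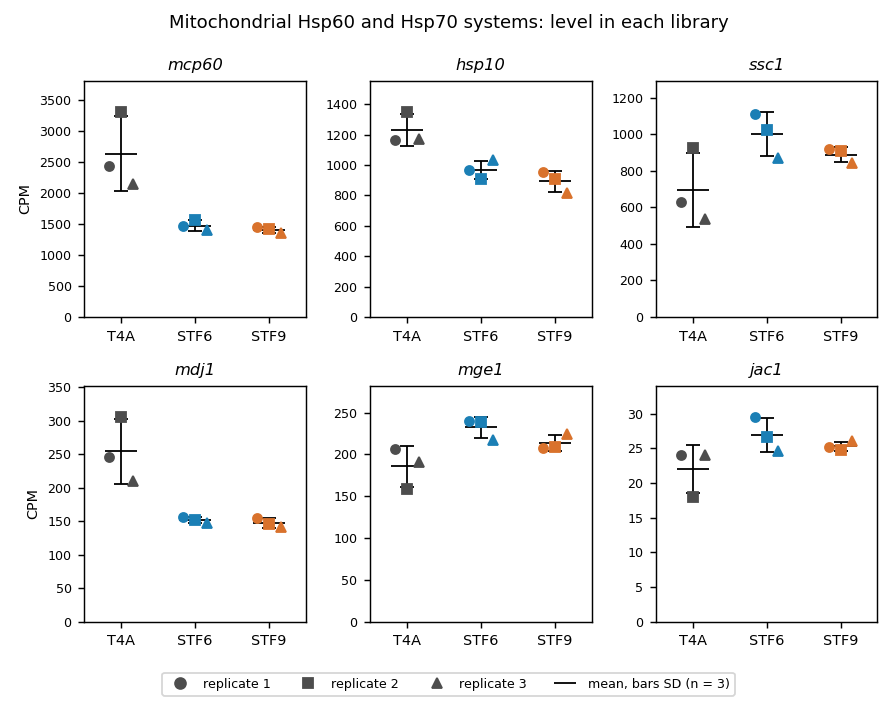
Level in CPM (y axis, linear from 0) of the mitochondrial Hsp60 pair (mcp60, hsp10) and of the Hsp70 ssc1 with its partners mdj1, mge1 and jac1 in each of the 9 libraries, with the mean and SD of each group (n = 3). mcp60, hsp10 and mdj1 lie lower in all 6 mutant libraries; for ssc1, T4A replicate 2 lies among the mutant libraries and the other T4A libraries below them.

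In the ER, bip1 and sil1 fell in both mutants. BiP (bip1, SPAC22A12.15c), the Hsp70 of the ER lumen, was at 2778, 3964 and 2708 CPM in T4A, 1760.3, 1811 and 1734 CPM in STF6 and 1753, 1694 and 1599 CPM in STF9. Every mutant library was below every T4A library, and T4A replicate 2 was the highest. The log2 fold changes were −0.83 ± 0.13 and −0.91 ± 0.13, with edgeR's adjusted p of 5.07e-04 and 2.95e-04, and −0.63 and −0.70 without T4A replicate 2. Sil1, the nucleotide exchange factor of BiP, was at 112, 107 and 113 CPM in T4A, 92.5, 94.7 and 98.1 CPM in STF6 and 93.6, 91.6 and 90.9 CPM in STF9. Its groups did not overlap, and it fell by 0.22 ± 0.07 in STF6 and 0.27 ± 0.07 in STF9 on the log2 scale. The STF6 call was lost without STF6 replicate 1, and both were lost with library size alone as the scaling.

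Other ER genes gave smaller values. rot1 had −0.14 ± 0.07 in STF6 and fell in STF9 (−0.21 ± 0.07, lost without T4A replicate 1 or STF9 replicate 2 or 3). The J-domain gene erj5 had 0.20 ± 0.09 in STF6 and rose in STF9 (0.28 ± 0.09, lost without STF9 replicate 2 or 3). lsh1, a large Hsp70 relative, and psh3, which by its product resembles the budding yeast Shr3 needed for amino acid permeases to leave the ER, did not pass in either mutant. Leaving out T4A replicate 2 added 3 calls among these genes in STF6: rot1 was lower (−0.17, edgeR adjusted p 0.0283), lsh1 lower (−0.15, edgeR adjusted p 0.0324) and psh3 higher (0.18, edgeR adjusted p 0.0203). Over all genes 23.3% were called higher and 20.6% lower in STF6 without that library.

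The CCT subunits, each present once in a ring, had small differences in RNA. Their log2 fold changes lay from 0.08 (cct4) to 0.30 (cct7) in STF6 and from 0.10 (cct2) to 0.30 (cct5) in STF9. The subunit that rose in both mutants was cct7, at 327, 327 and 293 CPM in T4A, 420.4, 397 and 348 CPM in STF6 and 371, 372 and 380.0 CPM in STF9. Its mutant libraries all lay above the T4A libraries, and the log2 fold changes were 0.30 ± 0.08 (edgeR adjusted p 0.0142) and 0.25 ± 0.08 (edgeR adjusted p 0.0324). The STF6 call was lost without STF6 replicate 1 or 2, and the STF9 call without T4A replicate 1 or 3 or any one STF9 library, as well as with DESeq2 or median-ratio scaling.

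In STF9 cct5 and cct4 also passed. For cct5 the level was 233, 186 and 235 CPM in T4A, 245, 252 and 235 CPM in STF6 and 255, 263 and 285 CPM in STF9. T4A replicate 2 was the lowest and the STF9 libraries the highest, and the STF9 log2 fold change was 0.30 ± 0.09 (edgeR adjusted p 0.0219), lost without STF9 replicate 2 or 3. For cct4 the level was 193, 155 and 179 CPM in T4A, 184, 184 and 188 CPM in STF6 and 204, 203 and 224 CPM in STF9. STF6 lay inside the T4A range and STF9 above it, with 0.26 ± 0.09 in STF9 (edgeR adjusted p 0.0278), lost without any one STF9 library. In STF6 these genes had 0.16 ± 0.09 and 0.08 ± 0.09.

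The other 5 subunits did not pass. cct6 was at 234, 183 and 222 CPM in T4A, 239, 233 and 235 CPM in STF6 and 237, 242 and 276 CPM in STF9. Its STF9 libraries lay above T4A, with 0.24 ± 0.09 (edgeR adjusted p 0.0555), and it had 0.15 ± 0.09 in STF6. cct1 was at 213, 188 and 185 CPM in T4A, 231, 226 and 211 CPM in STF6 and 219.9, 219.6 and 232 CPM in STF9. All STF9 libraries and all but 1 of the STF6 libraries lay above T4A. Its fold changes were 0.19 ± 0.08 and 0.19 ± 0.08 on the log2 scale. cct3 was at 401, 426 and 349 CPM in T4A, 467, 461 and 414 CPM in STF6 and 438, 437 and 429 CPM in STF9. Its STF6 libraries overlapped with those of T4A and its STF9 libraries did not, with 0.19 ± 0.09 and 0.15 ± 0.09. cct8 was at 301, 246 and 292 CPM in T4A, 309, 311 and 289.9 CPM in STF6 and 296, 297 and 326 CPM in STF9. It overlapped in both comparisons, with 0.12 ± 0.09 and 0.13 ± 0.09. cct2 was at 345, 314 and 305 CPM in T4A, 351, 349 and 319 CPM in STF6 and 336, 342 and 359 CPM in STF9. This was the subunit nearest to its parental level in STF9, with 0.08 ± 0.08 and 0.10 ± 0.08. T4A replicate 2 was the lowest T4A library for cct4, cct5, cct6 and cct8. Without it 3 subunits were called higher in STF6 and 5 in STF9, the added ones being cct1 and cct3 in both. The share of all genes called higher was also larger without it, 23.3% instead of 19.2% in STF6 and 26% instead of 23% in STF9.

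**Figure D4:**
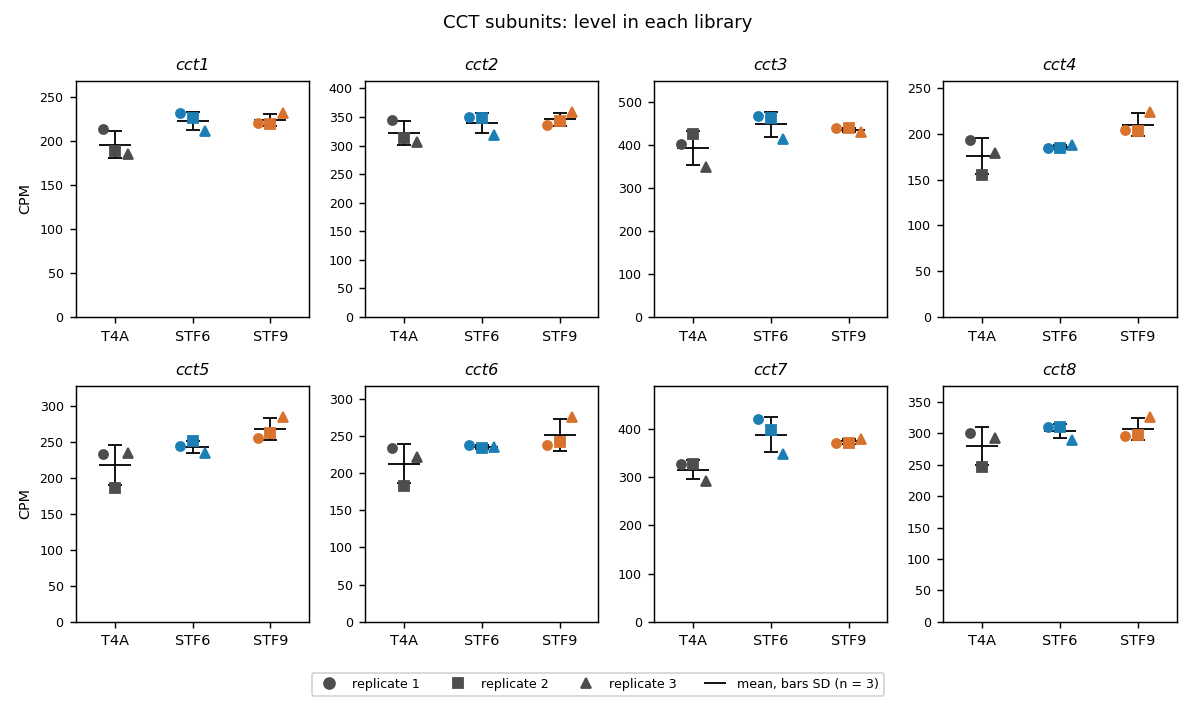
Level in CPM (y axis, linear from 0) of the 8 CCT chaperonin subunit genes in each of the 9 libraries, with the mean and SD of each group (n = 3). Mutant and T4A libraries lie close together for every subunit, with cct7 above T4A in both mutants and T4A replicate 2 lowest for cct4, cct5, cct6 and cct8.

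Genes around the chaperonin were read for comparison. Prefoldin passes unfolded actin and tubulin to CCT. Of the 6 genes with prefoldin in the product, not counting the member uri1, 0 passed in STF6 (median log2 fold change 0.09) and 1 rose in STF9 (median 0.29). The gene that rose was pac10 (0.37 ± 0.14), and its STF9 libraries overlapped with those of T4A. Over all genes 19.2% rose and 19.2% fell in STF6, and 23% and 21.3% in STF9. The tubulin cofactors take over from CCT and build the tubulin dimer. tbc1, cofactor C, was at 6.04, 5.23 and 5.99 CPM in T4A, 10.3, 8.75 and 10.5 CPM in STF6 and 9.89, 7.66 and 9.36 CPM in STF9. Its groups did not overlap, and it rose by 0.77 ± 0.15 in STF6 and 0.64 ± 0.15 in STF9 on the log2 scale. alp1, cofactor D, rose by 0.33 ± 0.12 and 0.36 ± 0.12, with its STF6 call lost without T4A replicate 1 or any one STF6 library and its STF9 call without any one STF9 library. alp11, cofactor B, fell in STF6 (−0.34 ± 0.12) with libraries that overlapped those of T4A, and this call was lost without T4A replicate 1 or 3 or any one STF6 library. alp21 and alp31 did not pass. When T4A replicate 2 was left out, alp31 was called lower in STF6 (−0.33, edgeR adjusted p 0.0183) and alp11 lower in STF9 as well (−0.30, edgeR adjusted p 0.00469).

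Among the 12 histone and nucleosome chaperones 5 rose and 0 fell in each mutant, with medians of 0.29 in STF6 and 0.35 in STF9. Over all genes 19.2% rose and 19.2% fell in STF6, and 23% and 21.3% in STF9, and the class was not tested against them. cia1, the Asf1 chaperone of histones H3 and H4, was at 17.5, 16.1 and 17.2 CPM in T4A, 24.3, 26.5 and 27.1 CPM in STF6 and 25.4, 28.2 and 29.8 CPM in STF9. All mutant libraries lay above T4A, and it rose by 0.62 ± 0.11 and 0.71 ± 0.11 on the log2 scale, with edgeR's adjusted p of 0.00101 and 3.94e-04. spt16, the large subunit of the FACT complex that opens nucleosomes for the polymerase, was at 49.5, 38.6 and 54.0 CPM in T4A, 62.3, 68.7 and 68.1 CPM in STF6 and 66.5, 72.8 and 82.2 CPM in STF9. It rose by 0.48 ± 0.12 and 0.64 ± 0.12 with no overlap, while its partner pob3 had 0.01 ± 0.10 and 0.16 ± 0.10 and did not pass. The 2 FACT subunits were not tested against each other.

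nap1, a chaperone of histones H2A and H2B, was at 109, 91.1 and 123 CPM in T4A, 151, 154 and 155 CPM in STF6 and 141, 161 and 157 CPM in STF9. Its groups did not overlap and its log2 fold changes were 0.51 ± 0.10 and 0.51 ± 0.10. hip1, of the HIRA complex that deposits histones outside replication, was at 36.2, 25.7 and 40.3 CPM in T4A, 45.4, 43.0 and 46.4 CPM in STF6 and 49.5, 50.3 and 59.5 CPM in STF9. It rose by 0.39 ± 0.14 in STF6, which was lost without T4A replicate 1 or any one STF6 library, and by 0.64 ± 0.14 in STF9. In STF6 chz1 rose (0.20 ± 0.07), a call lost without T4A replicate 1 or any one STF6 library, as well as with DESeq2 or median-ratio scaling. In STF9 nap2 rose (0.37 ± 0.14), a call lost without any one STF9 library, as well as with median-ratio scaling. slm9, the partner of Hip1, the CENP-A chaperones scm3 and sim3, ccp1 and mug183 did not pass. Without T4A replicate 2 the medians of the class were 0.16 and 0.22, and slm9 was called higher in STF9 (0.20, edgeR adjusted p 0.0308).

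The VTC complex of the vacuole membrane, which makes polyphosphate from ATP, is in the set by name. nrf1 was at 200.2, 193 and 204 CPM in T4A, 402, 369 and 367 CPM in STF6 and 356, 341 and 327 CPM in STF9. The T4A libraries lay close together and below all mutant libraries. It rose by 0.93 ± 0.07 in STF6 and 0.78 ± 0.07 in STF9 on the log2 scale, the largest rise of the 88 genes in STF6, with edgeR's adjusted p of 2.38e-06 and 9.56e-06. vtc4 was at 171, 169 and 154 CPM in T4A, 299.6, 271 and 253 CPM in STF6 and 264, 252 and 237 CPM in STF9. It rose by 0.74 ± 0.08 and 0.61 ± 0.08. vtc2 was at 205, 219.9 and 199 CPM in T4A, 349.8, 318 and 308 CPM in STF6 and 320.5, 293 and 300.2 CPM in STF9. It rose by 0.65 ± 0.08 and 0.55 ± 0.08, and neither gene overlapped with T4A. T4A replicate 2 was the lowest T4A library for nrf1, the highest for vtc2 and the middle one for vtc4. The class medians were 0.74 and 0.61, and 0.76 and 0.63 without it.

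**Figure D5:**
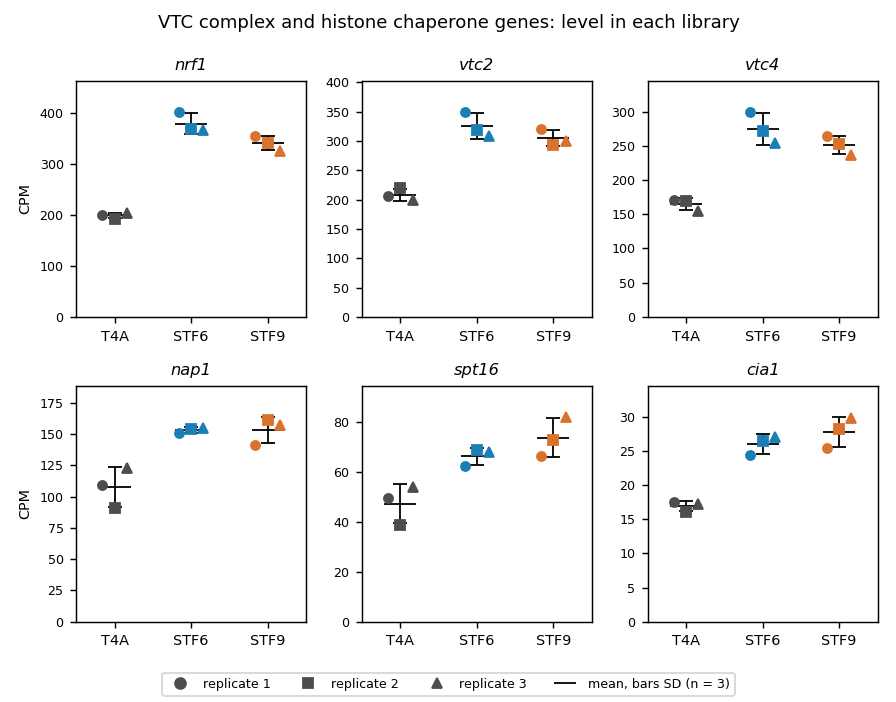
Level in CPM (y axis, linear from 0) of the 3 VTC subunit genes (top) and 3 histone chaperone genes (bottom) in each of the 9 libraries, with the mean and SD of each group (n = 3). All 6 mutant libraries lie above the 3 T4A libraries in every panel; T4A replicate 2 is the lowest library for nap1, spt16 and cia1.

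Of the 5 genes with copper chaperone in the product, 3 fell in each mutant and 2 did not pass. Over all genes 19.2% fell in STF6 and 21.3% in STF9. One of the 2 genes with no call, cox16, stands in the mitochondrial class by its product. It had values of the opposite sign, 0.25 ± 0.17 in STF6 and 0.39 ± 0.17 in STF9, with overlapping libraries. sco1, which loads copper into cytochrome oxidase, fell by 0.39 ± 0.09 in STF6 and 0.44 ± 0.09 in STF9 on the log2 scale. ccs1, which serves superoxide dismutase, had −0.31 ± 0.08 and −0.36 ± 0.08, and atx1, which carries copper to the secretory pathway, had −0.27 ± 0.07 and −0.35 ± 0.07. All 6 calls were kept under every alternative run, and no mutant library of these 3 genes overlapped with T4A. Over all genes the libraries did not overlap for 50.3% in STF6 and 54% in STF9. The other gene with no call was cox17, with −0.06 ± 0.09 and −0.05 ± 0.09.

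Of the 5 proteasome assembly genes, ecm29, which binds and checks the assembled proteasome, fell in both mutants. Its level was 121, 166 and 123 CPM in T4A, 95.2, 94.0 and 94.4 CPM in STF6 and 96.2, 95.9 and 90.2 CPM in STF9. T4A replicate 2 was the highest library, the groups did not overlap, and the log2 fold changes were −0.53 ± 0.11 and −0.54 ± 0.11. SPCC24B10.16c (Pac4) fell in STF6 (−0.30 ± 0.10), a call that was lost without T4A replicate 2 or STF6 replicate 1 or 2. nas6, SPCC18.17c and SPBC16E9.19 did not pass.

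The place of T4A replicate 2 went with the direction of the calls. Among the 16 members lower in both mutants it was the highest T4A library in 13 and the lowest in wos2, sti1 and sil1, and among the 16 higher in both it was the lowest in 13. This also held over all genes: it was the highest T4A library in 78.7% of those called lower in STF6 and the lowest in 60.6% of those called higher, and in STF9 these shares were 80.7% and 70.6%. Without it, 15 of the 16 lower genes still fell in both mutants, mug4 being the exception, and 16 of the 16 higher genes still rose. The part of this library in the size of the differences was not tested further.

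STF9 was then set directly against STF6. Of the 88 genes 0 passed, as did 0 of all 5951 (a background of 0% higher and 0% lower), by edgeR's quasi-likelihood test, and DESeq2 called 0 of the 88 as well. At an unadjusted p under 0.05 stood 1 of the 88, lsh1, with a log2 difference of 0.16 ± 0.07 (STF9 over STF6) and an adjusted p of 0.98, and 178 genes of all. The largest difference in size was 0.30 ± 0.14 for sim3, and 10 members differed by more than 0.2. Of the genes with large falls, the same comparison gave −0.13 ± 0.16 for psi1, −0.01 ± 0.11 for aha1, −0.07 ± 0.14 for mcp60 and −0.07 ± 0.13 for bip1. A p that misses the threshold does not show that the mutants are alike.

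The chaperones left out of the set and the folding enzymes beside it give the setting. The 7 left-out heat shock genes with hsf1 had 1 higher and 6 lower in each mutant, with medians of −1.03 in STF6 and −1.08 in STF9. Over all genes 19.2% rose and 19.2% fell in STF6, and 23% and 21.3% in STF9, and none of these lists was tested against them. The heat shock gene that rose was hsf1, the gene of heat shock factor itself, by 0.45 ± 0.09 and 0.53 ± 0.09. hsp90, whose co-chaperones are described above, had −1.17 ± 0.16 and −1.24 ± 0.16. T4A replicate 2 was the highest T4A library for ssa1, ssa2, hsp90, hsp9 and hsp104 and the lowest for hsp16, hsp78 and hsf1. Of 12 peptidyl-prolyl isomerase genes 2 rose and 3 fell in STF6 and 3 rose and 3 fell in STF9, and wis2, a cyclophilin that binds Hsp90, had −0.74 ± 0.09 and −0.61 ± 0.09. Of 5 disulfide isomerase genes, which work in the ER beside BiP, 0 rose and 2 fell in each mutant. Of the 2 genes of the nascent polypeptide complex 0 passed in STF6 and 1 rose in STF9.

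Antisense RNAs are annotated for some members. Of 6 with a member's name, 3 passed the filter on low counts. cct5-antisense-1 rose by 1.36 ± 0.21 in STF6 and 1.36 ± 0.21 in STF9 on the log2 scale, with edgeR's adjusted p of 3.78e-04 and 3.75e-04. Its counts were low, at 2.06, 1.61 and 1.34 CPM in T4A, 4.14, 3.74 and 4.99 CPM in STF6 and 3.71, 4.53 and 4.63 CPM in STF9. ucp7-antisense-1 fell in STF6 (−0.80 ± 0.21) and had −0.53 ± 0.21 in STF9 with an edgeR adjusted p of 0.0504, and hip1-antisense-1 did not pass. The kit keeps strand, but whether counting used it is not given in the sources used here, so reads of these genes and their antisense partners may not be fully separated.

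The authors' deposited table for STF6 gave 21 members higher and 24 lower at an adjusted p under 0.05, and it shared 20 and 18 of these with the calls above. Of all genes with an adjusted p in that table, 19.6% were higher and 23.8% lower. In the authors' deposited table for STF9 the numbers were 29 and 24, of which 23 and 19 were shared. There 24.2% of all genes with an adjusted p were higher and 27.2% lower. No member was called in opposite directions. In STF6 the deposited table alone called jac1 higher and ssz1, bag102, pmp20, lsh1, rot1 and SPCC63.03 lower, against edgeR with all libraries. In STF9 it alone called cct6, rsp1, bag101, SPBC17A3.05c, mug183 and mge1 higher. It alone called ssz1, pmp20, SPCC63.03, SPCC24B10.16c and alp11 lower there.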

How the data were processed

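Poly(A)+ RNA was sequenced from 9 libraries, 3 each of T4A, STF6 and STF9, from a stranded kit read as paired ends, per the labels' protocols. The submitters' processing notes name HISAT2 2.1.0, SAMtools, DESeq2 and HTSeq 0.10.0, and the genome build ASM294v2. How strand and multiply mapped reads were handled was not given in the sources used here, so close paralogs are uncertain.

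The authors deposited whole-number counts per gene, not normalized. They also deposited, for each mutant against T4A, a log2 fold change and p-values, used here for product names and a comparison of calls.

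Of 6987 lines in the table of counts, 1 all-zero duplicate was dropped, and 384 of the other 6986 genes had no count. In R 4.3.3, edgeR 4.0.16 kept 5951 genes (filterByExpr), scaled them by TMM, fitted a model with only the group to the 9 libraries together (glmQLFit) and tested each comparison (glmQLFTest), with Benjamini-Hochberg adjustment over the 5951 genes and a threshold of 0.05. The common biological coefficient of variation was 0.104. CPM are TMM-scaled, and errors of log2 fold changes are standard errors. The script was tested on simulated data. Alternatives, among them DESeq2 1.42.0, are given in the closing section. Python 3.11.15 and matplotlib 3.10.9 made the figures.

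Classes were assigned by words in the product, first match first. The members, classes and comparison lists were chosen with earlier results of these data known. Every member could be named; values in every library were given for the called members with the largest folds (up to 10 each way per mutant), for every CCT subunit and for co-chaperones of Hsp70 and Hsp90 that the text describes. Promoter motifs were not searched and coordinates were not used here.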

Additional observations from a re-analysis of the deposited data

How the results depend on the processing

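No called member changed direction in any alternative. Of 80 calls of members against T4A, 47 passed under all 13 alternatives and 33 missed the threshold under at least 1. The losses given with the genes are mainly those on leaving out a library, and many of these calls were also lost with another scaling or fit. Examples are cct4, cct5, xdj1 and erj5 in STF9 and hip1 in STF6, lost with library size alone and with only 6 libraries in the fit. With only the 6 libraries of a comparison in the fit, 13 members rose in STF6 instead of 20 and 13 in STF9 instead of 23. The share of all genes that rose was lower as well, 14.8% instead of 19.2% in STF6 and 15.7% instead of 23% in STF9. With library size alone as the scaling, 12 fell in STF9 instead of 19, and 18.7% of all genes fell instead of 21.3%. The causes were not tested. Leaving out each library in turn gave 10 to 24 higher and 14 to 21 lower in STF6, and 13 to 30 higher and 14 to 22 lower in STF9. Over all genes these runs gave 12.4% to 23.6% higher and 15.1% to 24.2% lower in STF6. In STF9 they gave 13.5% to 27.5% higher and 13.6% to 25.6% lower. The STF6 count of higher genes was 11, 10 and 13 without STF6 replicates 1, 2 and 3, and that of STF9 was 13 without replicate 2 and 13 without replicate 3. The shares of all genes called higher were then 12.6%, 12.6% and 12.4% in STF6, and 13.5% and 14.1% in STF9. STF9 against STF6 gave 0 calls among the members under every alternative run. Over all genes, 0.119% were called higher and 0.17% lower with only the 6 libraries in the fit. With DESeq2 0.0143% of all genes were called lower in STF9 than in STF6.

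Replicate numbers pair nothing in the labels. Same-numbered libraries had correlated deviations from −0.31 to 0.38 and did not always match best with their own number. With the replicate block, 19 members rose and 18 fell in STF6, and 28 rose and 19 fell in STF9, with 0 between the mutants. Over all genes the block gave 21.2% higher and 19.7% lower in STF6, and 25.3% and 21.8% in STF9.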
